A study of Mus musculus with 4 samples.

Results

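The Adam, Adamts, Mmp and Timp genes encode the secreted and membrane-bound metalloproteinases that cut cell-surface proteins and extracellular matrix, together with the tissue inhibitors that block them. They were followed here in muscle stem cells (MuSCs) of mouse plantaris after tenotomy, the cutting of synergist tendons that overloads the plantaris. Members were all protein-coding genes of the count table whose symbol began with Adam and a digit, with Adamts, with Mmp and a digit, or with Timp and a digit from 1 to 4. This gave 46 of the 19353 genes in the table, of which 14 were Adam genes, 14 Adamts genes, 4 Adamtsl genes, 10 Mmp genes and 4 Timp genes. Every animal carried Pax7-CreERT2:Rosa-YFP, in which tamoxifen switches on a YFP label in cells that drive Cre from the Pax7 promoter. YFP-positive cells were collected 4 days after sham surgery or tenotomy, at 100 cells per tube, with 2 libraries in each group. The age of the animals is not given in the sources used here, nor is it said if separate mice gave the libraries of each group, so the p-values measure the spread between these samples, which may be technical.

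Libraries were made by CEL-Seq2, which tags the poly(A) end of each RNA molecule with a unique molecular identifier (UMI), so that a count does not grow with transcript length. Depth was 269683 and 260488 UMIs in sham, against 387955 and 483528 after tenotomy. All 8 satellite cell markers examined were present in every library, and Pax7, the transcription factor that defines these cells, had 118 and 107 UMIs in the sham libraries and 108 and 137 in the deeper tenotomy libraries. A level is given below in UMIs, or in CPM, each count divided by the TMM-scaled sum of UMIs on tested genes, which sets the typical gene equal between libraries. Fewer cells of a type and less RNA per cell cannot be told apart in such samples.

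As background, these enzymes share a zinc-binding catalytic domain and are made as inactive precursors. ADAM proteases sit in the membrane and shed the outer parts of receptors and ligands, among them Notch receptors and growth factor precursors. ADAMTS enzymes are secreted and cut proteoglycans or trim procollagens, MMPs degrade collagens, laminins and other matrix proteins, and TIMPs bind to the active site of MMPs and some ADAMs. In muscle, MuSCs lie between the fibre and its basal lamina, a matrix that such enzymes remodel when the cells leave quiescence.

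Adam10, Adamts1 and Timp1 were the members whose change passed the test under every processing alternative tried, and their promoter sequences are shown for that reason. Sequences are those of RefSeq on GRCm38.p6, 250 bases ending just before the RefSeq transcript start, on the strand of the gene, with motif matches in capitals. Adam10 (chr9:70678997-70780229, plus strand) has its window at chr9:70678732-70678981, Adamts1 (chr16:85793827-85803113, minus strand) at chr16:85803114-85803363 and Timp1 (chrX:20870166-20874735, plus strand) at chrX:20869916-20870165.
Adam10: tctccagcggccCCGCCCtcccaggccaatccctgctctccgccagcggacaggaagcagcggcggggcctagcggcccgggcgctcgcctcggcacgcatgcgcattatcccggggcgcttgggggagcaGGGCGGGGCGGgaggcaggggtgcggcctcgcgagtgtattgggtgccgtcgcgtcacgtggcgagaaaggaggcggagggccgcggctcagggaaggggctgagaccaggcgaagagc
Adamts1: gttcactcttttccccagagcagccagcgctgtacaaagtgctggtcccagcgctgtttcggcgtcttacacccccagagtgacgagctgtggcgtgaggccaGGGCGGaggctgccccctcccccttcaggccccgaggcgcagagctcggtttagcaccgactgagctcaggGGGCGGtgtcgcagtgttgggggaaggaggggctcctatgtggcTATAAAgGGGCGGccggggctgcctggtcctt
Timp1: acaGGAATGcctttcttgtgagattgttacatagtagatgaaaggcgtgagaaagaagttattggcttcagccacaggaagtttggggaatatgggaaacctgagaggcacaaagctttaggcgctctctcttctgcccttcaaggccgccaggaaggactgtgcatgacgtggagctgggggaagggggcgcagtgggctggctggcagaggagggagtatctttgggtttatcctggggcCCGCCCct
Capitals mark GGGCGG, the GC box, or CCGCCC, its reverse complement, and in addition TATAAA, the TATA box, in Adamts1 and GGAATG, the core recognized by TEAD factors, in Timp1. Adam10 carried 3 GC boxes, a pair of which share 1 base. The Adamts1 window held a TATA box 32 bases before the start and GC boxes 147, 76 and 25 bases before it. In the Timp1 window the TEAD core began 247 bases before the start and a GC box 8 bases before it.

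Promoter windows were found for 26 members. A gene was counted once if any of its windows held a match on either strand, both for the members and for all 27025 genes with a window. GGGCGG was present in 19 of the 26 members and in 35.4% of all genes. CAGCTG, an E-box bound by myogenic factors, was in 9 of 26 and in 14.7% of all genes. GGAATG was in 2 of 26, those of Adam19 and Timp1, against 14.4% of all genes, and TATAAA was in 2 of 26 against 14.3%. The AP-1 site TGANTCA, in which N is any base, was in 2 of 26 members and 7.82% of genes, and the RBPJ site GTGGGAA in 0 of 26 members and 6.18% of genes. A match describes the letters of the window and was not tied to binding.

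Of the 46 members, 30 had at least 1 UMI in all 4 libraries and 19 had enough counts to be tested. The 19 held 91.7% of the 3746 UMIs that fell on the members. With the edgeR quasi-likelihood test and Benjamini-Hochberg adjustment over 7228 genes, 7 of the 19 were higher after tenotomy at an adjusted p under 0.1 and 10 were lower, while Adamtsl1 and Mmp14 did not pass. Tenotomy moved a large part of the transcriptome, since 25.8% of all tested genes were higher, 26.3% lower and 52.1% changed in either direction. In the DESeq2 fit 2 of 30 tested members were higher and 6 lower, beside 967 and 1215 of 10348 tested genes. Groups did not overlap in CPM for 18 of the 19, against 72.9% of all tested genes. The median log2 fold change of the 19 was -0.57 and that of all tested genes 0.05. The filter itself shaped this set, because Adam10, Adam19, Adamts2 and Adamts14 were at the filter level in both tenotomy libraries but not in both sham libraries, and Adamtsl4 in both sham libraries but not in both tenotomy libraries, so that these 5 entered through the group in which they were higher. Among the other genes named below, the same holds after tenotomy for Tspan5, Tspan17, Dll1, Pcolce, Vcan, Fn1, Tnc, Spp1, Ly6a, Lyz2 and Scx, and in sham for Pcsk5 and Tek, so their calls, and counts of calls in their lists, lean on that choice.

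**Figure D1:**
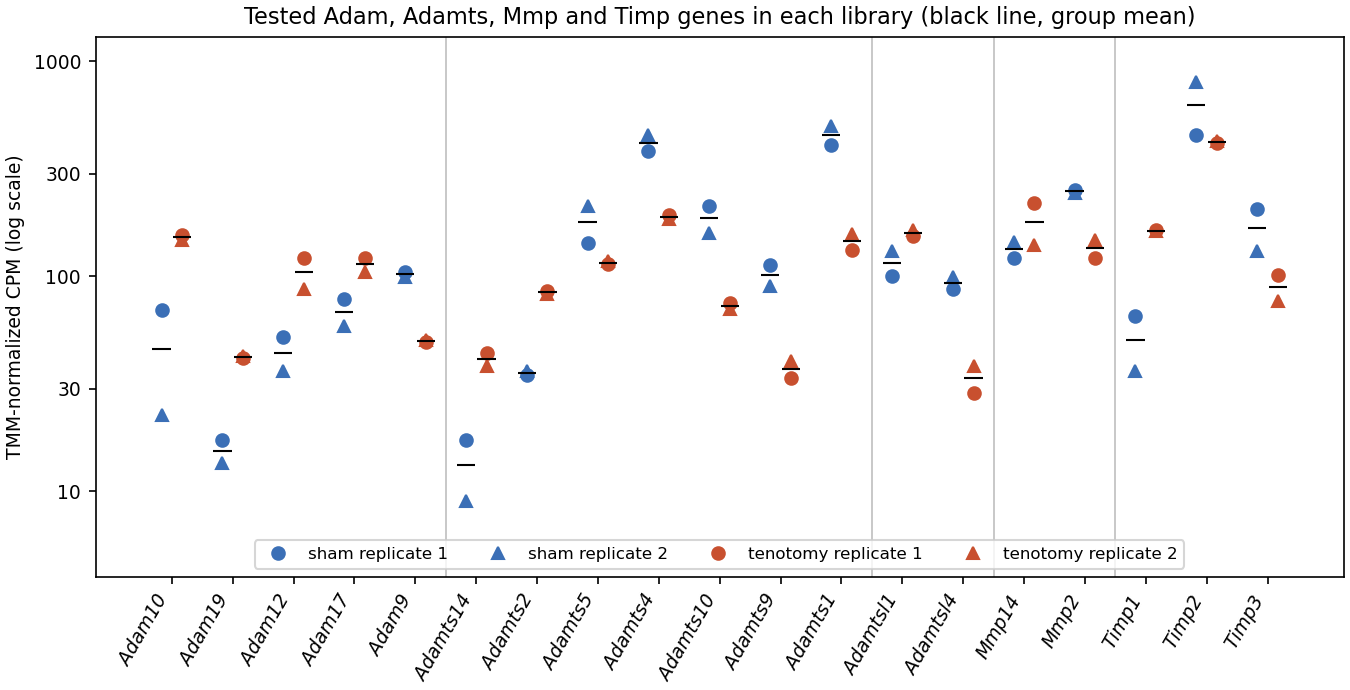
Level of each of the 19 tested members in the 4 libraries, as TMM-normalized CPM on a log axis, with a point per library and a black line at the mean of each group (n = 2). For Adam10 the tenotomy points lie at 156.0 and 147.8 CPM above sham points at 69.6 and 22.7, and for Adamts1 they lie at 132.6 and 158.0 below 409.2 and 498.3, while for Mmp14 the groups overlap.

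The 5 Adam genes with enough counts all encode membrane shedding proteases. Adam10, Adam12, Adam17 and Adam19 were higher after tenotomy and Adam9 was lower, beside 25.8% and 26.3% of all tested genes. Adam10 and Adam19 were at the filter level in both tenotomy libraries but not in both sham libraries, so their calls lean on the filter. Summed over all 14 Adam genes, the level was 343.9 and 289.9 CPM in the sham libraries and 548.6 and 506.3 CPM in the tenotomy libraries.

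Adam10, the main alpha-secretase and the protease that makes the extracellular cut in Notch receptors, had 16 and 5 sham UMIs against 60 and 73 after tenotomy. Both tenotomy libraries lay above both sham libraries, and the sham pair was widely spread. Its level was 46.1 ± 33.2 CPM in sham and 152 ± 5.78 CPM after tenotomy (SD, n = 2), a log2 fold change of 1.69 (SE 0.35, 95% interval 0.97 to 2.42, adjusted p = 8.3e-04). Leaving out sham replicate 1 raised the value to 2.69 and leaving out sham replicate 2 lowered it to 1.08, with the call kept in each case.

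Adam12, or meltrin alpha, which is known to be induced in regenerating muscle, had 12 and 8 UMIs in sham, against 47 and 43 after tenotomy. The libraries of the groups were well apart, at a log2 fold change of 1.21 (SE 0.36, adjusted p = 0.0116). Adam19, or meltrin beta, which can shed neuregulins, was sparse, with 4 and 3 UMIs in the sham libraries and 16 and 21 in the tenotomy libraries. Its log2 fold change was 1.42 (SE 0.49, adjusted p = 0.025), but the call was lost whenever any 1 of the 4 libraries was left out, and with offsets that remove the trend of fold change with abundance the value was 0.45 (adjusted p = 0.568). Adam17, which releases tumour necrosis factor and ligands of the epidermal growth factor receptor, had 18 and 13 sham UMIs against 47 and 52 after tenotomy. The difference was the smallest of the 4, at 0.71 (SE 0.30, adjusted p = 0.0616), and did not pass without sham replicate 2 (0.49, adjusted p = 0.344) or without tenotomy replicate 1 (0.63, adjusted p = 0.179).

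Adam9, or meltrin gamma, went the other way. It had 24 and 22 UMIs in sham, against 19 and 25 after tenotomy, so that the raw counts overlapped and the change appeared on the scaled level, from 102 ± 3.40 CPM to 50.0 ± 0.866 CPM (SD, n = 2). The log2 fold change was -1.02 (SE 0.32, adjusted p = 0.0147), and -0.06 in UMIs per tube. In the DESeq2 fit only Adam10 of these 5 genes passed, with adjusted p of 0.106 for Adam12 and 0.155 for Adam9.

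The partners of these proteases did not move as a block. Of the tetraspanins that escort ADAM10 to the cell surface, Tspan5 had 7 and 7 UMIs in the sham libraries and 21 and 33 in the tenotomy libraries (log2 fold change 0.97, adjusted p = 0.063), and Tspan17 had 3 and 3 against 12 and 15 (1.18, adjusted p = 0.088), and both were below the filter level in the sham libraries. Tspan14, another of them, had no UMI in sham and 9 and 14 after tenotomy, too few to be tested, and the third tested member of that list did not pass. Rhbdf2, which encodes the iRhom2 needed for ADAM17 to mature, fell from 43 and 32 UMIs to 16 and 23 (-1.90, adjusted p = 7.7e-05). Its relative Rhbdf1 had 17 and 17 sham UMIs against 30 and 39 after tenotomy, at a log2 fold change of 0.06 that did not pass.

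Among 24 genes for surface proteins that ADAMs are known to shed, 13 were tested, of which 3 were higher and 6 lower, beside 25.8% and 26.3% of all tested genes. Dll1, a Notch ligand, rose from 7 and 5 UMIs to 32 and 56 (log2 fold change 1.89, adjusted p = 0.0012), and Met, the receptor for hepatocyte growth factor, rose from 21 and 28 to 73 and 124 (1.03, adjusted p = 0.0027). Hbegf, a growth factor precursor shed by ADAM17, fell from 36 and 51 UMIs to 28 and 39 (-1.34, adjusted p = 5.4e-04), and Notch3 from 175 and 163 to 143 and 170 (-1.07, adjusted p = 5.3e-05). Tnfrsf1a, a tumour necrosis factor receptor, was lower as well, at 66 and 36 UMIs against 42 and 55 (-1.03, adjusted p = 0.0032). For Hbegf, Notch3 and Tnfrsf1a the raw counts of the groups overlapped, and the fall is one of share among the counted molecules.

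**Figure D2:**
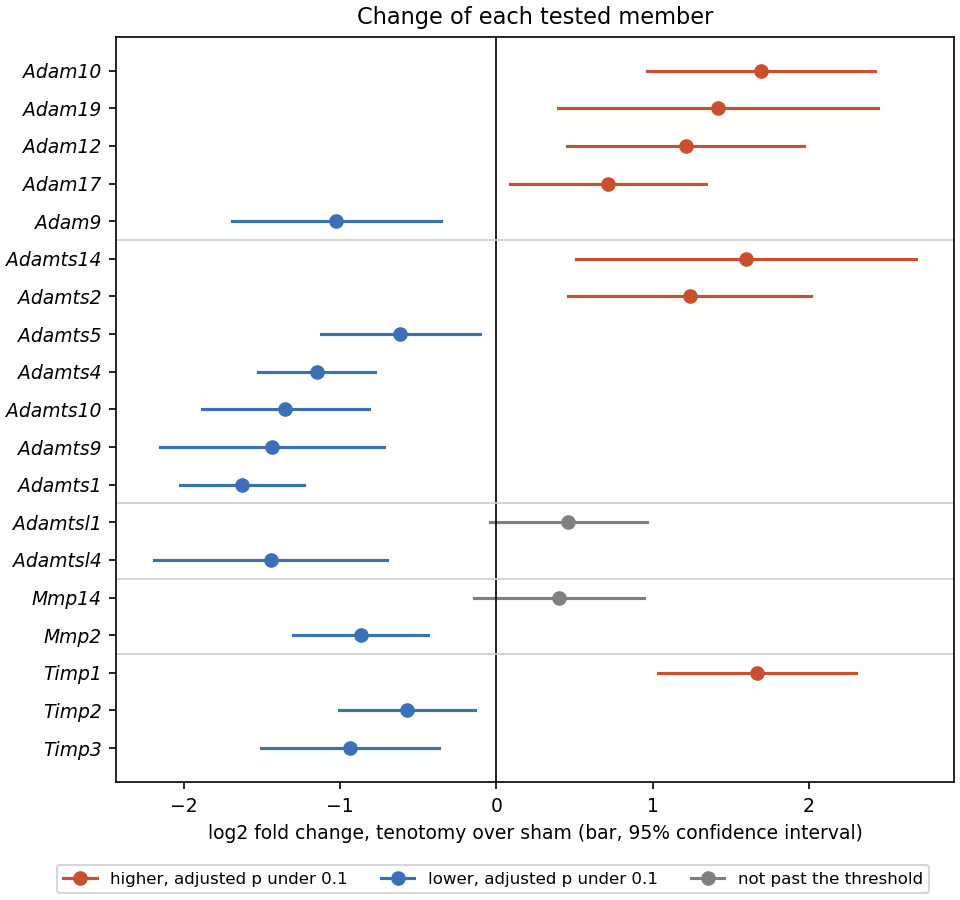
Log2 fold change of each of the 19 tested members, tenotomy over sham, with its 95% confidence interval, from the edgeR quasi-likelihood fit to 2 libraries a group. Values run from -1.63 for Adamts1 to 1.69 for Adam10, and the intervals of Adamtsl1 and Mmp14 cross 0.

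Of the 7 Adamts genes that cut proteoglycans such as versican and aggrecan, 4 were tested and 3 were too sparse. The 4 tested, Adamts1, Adamts4, Adamts5 and Adamts9, fell on the TMM scale, beside 26.3% of all tested genes, although in UMIs per tube without scaling only Adamts1 passed, with Adamts4 at -0.19 (adjusted p = 0.498), Adamts9 at -0.48 (adjusted p = 0.330) and Adamts5 at 0.35. The summed level of the 7 proteoglycanase genes went from 1212 ± 157 CPM in sham to 529 ± 34.2 CPM after tenotomy (SD, n = 2). In unscaled UMIs per library the sums were 253 and 292 in sham and 194 and 273 after tenotomy, which overlap.

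Adamts1 had 94 and 110 UMIs in sham, against 51 and 78 after tenotomy, lower in raw counts too in spite of the deeper tenotomy libraries. Its level fell from 454 ± 63.0 CPM to 145 ± 17.9 CPM (SD, n = 2), 3.09-fold lower (log2 value -1.63, SE 0.19, 95% interval -2.03 to -1.23, adjusted p = 4.2e-06). Leaving out any library kept the value between -1.80 and -1.50, and in UMIs per tube it was -0.66 (adjusted p = 0.0361).

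Adamts4, an aggrecanase, had 88 and 100 UMIs in the sham libraries and 74 and 91 in the tenotomy libraries, with a log2 fold change of -1.15 (SE 0.18, adjusted p = 7.8e-05). Adamts9 was lower, with 26 and 20 UMIs in sham, against 13 and 20 after tenotomy (-1.44, SE 0.34, adjusted p = 0.0026). Adamts5, the other main aggrecanase, had 33 and 47 UMIs against 44 and 58. Its change of -0.61 (SE 0.24, adjusted p = 0.0469) was the smallest of the group. In the DESeq2 fit its value was -0.61 as well, but it did not pass (adjusted p = 0.276). It did not pass without sham replicate 2 (-0.35, adjusted p = 0.441), without tenotomy replicate 1 (-0.57, adjusted p = 0.105) or without tenotomy replicate 2 (-0.59, adjusted p = 0.130).

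The remaining proteoglycanase genes were sparse. Adamts8 had 4 and 5 UMIs in the sham libraries and 2 and 13 in the tenotomy libraries, Adamts15 had 3 and 3 against 5 and 6, and Adamts20 had 5 and 7 in each group. No direction can be read from counts of this size. Vcan, which encodes the substrate versican, rose from 10 and 5 UMIs to 67 and 68 (log2 fold change 2.20, adjusted p = 9.1e-05). The 4 tested proteoglycanase genes fell on the TMM scale.

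Adamts2 and Adamts14, which remove the amino-terminal propeptide from fibrillar procollagens, were higher after tenotomy, beside 25.8% of all tested genes. Both passed the filter only through the tenotomy libraries, the group in which they were higher, so their shared direction leans on that choice. Adamts2 had 8 and 8 sham UMIs against 33 and 41 after tenotomy, or 34.8 and 36.2 CPM against 85.8 and 83.0 CPM, with tight pairs in each group (log2 fold change 1.24, SE 0.37, adjusted p = 0.0117). Adamts14 had 4 and 2 UMIs against 17 and 19 (3.02-fold higher, SE of the log2 value 0.52, adjusted p = 0.0186). The 2 genes together had 12 and 10 UMIs in the sham libraries and 50 and 60 in the tenotomy libraries. Neither passed in the DESeq2 fit (adjusted p = 0.140 for Adamts2), and Adamts14 did not pass without sham replicate 2, tenotomy replicate 1 or tenotomy replicate 2 (adjusted p = 0.225, 0.196 and 0.157) or with offsets for abundance, where its log2 value was 0.45 (adjusted p = 0.589).

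Of 3 tested genes from a list of other metzincins and their helpers, 1 was higher and 1 lower, beside 25.8% and 26.3% of all tested genes, and both act at the opposite end of procollagen. Pcolce, which enhances the removal of the carboxy-terminal propeptide, rose from 4 and 5 UMIs to 33 and 45 (log2 fold change 2.13, adjusted p = 6.7e-04), while Bmp1, the protease that removes it, was lower on the scaled level, at 61 and 49 against 60 and 59 UMIs (-0.84, adjusted p = 0.0045). Col1a2, which encodes the alpha2 chain of type I collagen, went from 74 and 55 UMIs to 426 and 465 (1.84). Col1a1, its partner chain, had 206 and 181 UMIs against 364 and 377 and a log2 fold change of -0.01 that did not pass (adjusted p = 0.966).

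Adamts10, which is linked to fibrillin microfibrils, was lower after tenotomy, at 49 and 35 UMIs against 29 and 35 (log2 fold change -1.35, SE 0.25, adjusted p = 4.4e-04), and at -0.39 without passing in UMIs per tube. Its close relative Adamts6 had too few counts for the fit, with 2 and 0 UMIs in sham, against 9 and 9 after tenotomy. Adamts7 and Adamts12, which cut cartilage oligomeric matrix protein, were also untested, at 3 and 1 against 9 and 16 UMIs and at 5 and 3 against 8 and 6. Of the Adamtsl genes, whose products lack a catalytic domain, Adamtsl4 fell from 20 and 22 UMIs to 11 and 19 (-1.44, SE 0.35, adjusted p = 0.0033), a call that was lost in UMIs per tube (-0.48). Adamtsl1 had 23 and 29 UMIs against 59 and 81, with a log2 fold change of 0.46 (95% interval -0.04 to 0.97, adjusted p = 0.128) that did not pass. Its call depended on the scaling, since it passed as higher with upper-quartile factors (0.56, adjusted p = 0.0668), library sizes alone (0.74, adjusted p = 0.0167), offsets for abundance, UMIs per tube and libraries thinned to equal depth (0.64, adjusted p = 0.0534). The gap in CPM between its groups was small, from 131.4 in the higher sham library to 153.4 in the lower tenotomy library.

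Only Mmp2 and Mmp14 of the 10 Mmp genes were abundant enough to test. Mmp2, or gelatinase A, which degrades type IV collagen of basal laminae, had 58 and 54 UMIs in the sham libraries and 47 and 73 in the tenotomy libraries. It was lower on the TMM scale, from 249 ± 5.55 CPM to 135 ± 18.1 CPM (SD, n = 2), with a log2 fold change of -0.87 (SE 0.20, adjusted p = 0.0025), and at 0.10 in unscaled UMIs per tube. Mmp14, the membrane protease that activates the MMP2 precursor, had 28 and 32 sham UMIs against 84 and 69 after tenotomy. Its scaled levels overlapped, at 121.9 and 145.0 CPM against 218.4 and 139.7, and the log2 fold change of 0.40 (95% interval -0.14 to 0.94, adjusted p = 0.221) did not pass. Tenotomy replicate 1 set much of that value, which was 0.09 without it and 0.75 (adjusted p = 0.0246) without tenotomy replicate 2. It also passed as higher with library sizes alone (0.68, adjusted p = 0.0303) and in UMIs per tube (1.35, adjusted p = 0.0016). There were 0.483 and 0.593 Mmp14 UMIs for each Mmp2 UMI in sham, and 1.79 and 0.945 after tenotomy.

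The other Mmp genes were too sparse to test. Mmp15, a membrane-anchored member, had 2 and 1 UMIs in sham, against 11 and 16 after tenotomy. Mmp11 had 0 and 3 against 2 and 7, and Mmp17 had 1 and 1 against 1 and 8, each carried by tenotomy replicate 2. Mmp9, the gelatinase of inflammatory cells, had no UMI in sham and 2 and 2 after tenotomy, and Mmp3 had 1 UMI in all, in tenotomy replicate 2.

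The inhibitors diverged. Timp1, the inducible inhibitor, rose from 15 and 8 UMIs in sham to 63 and 80 after tenotomy, or from 50.8 ± 20.5 CPM to 163 ± 1.27 CPM (SD, n = 2). Sham and tenotomy values were clear of each other, and the log2 fold change was 1.67 (SE 0.30, 95% interval 1.03 to 2.30, adjusted p = 2.9e-04), between 1.27 and 2.12 with any library left out. Timp1 lies inside the neuronal gene Syn1, which is on the other strand and had 1 UMI in the 4 libraries.

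Timp2, which both inhibits MMP2 and helps MMP14 to activate it, had 104 and 177 UMIs in the sham libraries and 160 and 210 in the tenotomy libraries. The sham pair differed widely, at 452.7 and 801.8 CPM, and the tenotomy pair lay just below it at 416.0 and 425.3. The log2 fold change of -0.57 (SE 0.21, adjusted p = 0.0331) came to -0.14 without sham replicate 2 (adjusted p = 0.719) and to -0.96 without sham replicate 1, and it was positive with offsets for abundance (0.18) and in UMIs per tube (0.40). Timp3, which binds to the matrix and also inhibits ADAM17 and aggrecanases, had 47 and 29 UMIs against 39 and 38, and was lower at -0.93 (SE 0.27, adjusted p = 0.0099) but at 0.019 in UMIs per tube. Without sham replicate 1 its value was -0.61 (adjusted p = 0.178). In the DESeq2 fit Timp2 (-0.57, adjusted p = 0.117) and Timp3 (-0.92, adjusted p = 0.101) did not pass, at values about as large. Timp4 was too sparse to test, with 3 and 1 sham UMIs against 5 and 10 after tenotomy.

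Timp1 made up 8.88% and 3.72% of Timp UMIs in the sham libraries and 23.6% and 23.7% in the tenotomy libraries. For each Timp3 UMI there were 0.319 and 0.276 Timp1 UMIs in sham and 1.62 and 2.11 after tenotomy. Such a ratio is taken within a library and is free of the scaling between libraries. Summed Timp UMIs for each UMI of an Adam, Adamts or Mmp gene were 0.343 and 0.430 in sham and 0.405 and 0.408 after tenotomy, and these overlap.

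The makeup of the family differed between the groups while its share of all UMIs, taken without scaling, overlapped. On the TMM scale the summed level of all 46 members was 3073 and 3470 CPM in sham and 2600 and 2580 CPM after tenotomy, which do not overlap. In unscaled counts they took 0.262% and 0.294% of the UMIs in sham and 0.258% and 0.263% after tenotomy. Within them, Adam genes went from 11.2% and 8.36% to 21.1% and 19.6%, and Adamts genes from 46.0% and 44.5% to 29.9% and 31.3%. In UMIs, Adam genes had 79 and 64 in sham and 211 and 250 after tenotomy, while Adamts genes had 325 and 341 against 299 and 399, which overlap. There were 0.243 and 0.188 Adam UMIs for each Adamts UMI in sham and 0.706 and 0.627 after tenotomy. Fold changes fell with abundance across all tested genes, as given below, and the part of that trend in this ratio was not tested. Mmp genes held 89 of 706 and 95 of 766 member UMIs in sham and 150 of 1000 and 179 of 1274 after tenotomy, and Adamtsl genes held 6.23% and 6.66% against 7.30% and 8.48%. The Timp share overlapped, at 23.9% and 28.1% against 26.7% and 26.5%. With 2 libraries a group, an exact permutation test of such a ratio cannot give a two-sided p below 0.333, so the values are given as a description.

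**Figure D3:**
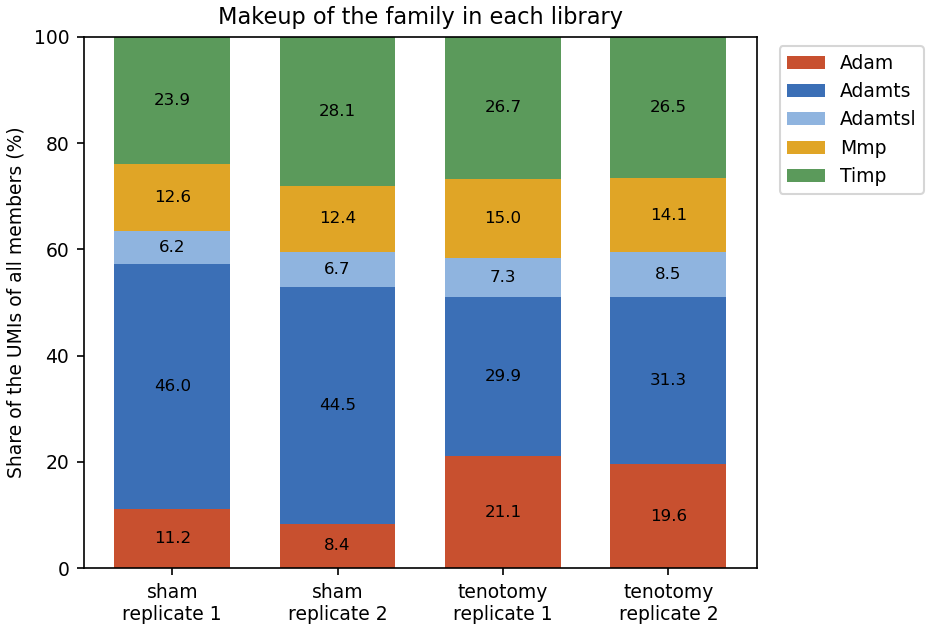
Share of the UMIs of all 46 members that fell on Adam, Adamts, Adamtsl, Mmp and Timp genes in each of the 4 libraries, as stacked bars that sum to 100%. The Adam share is 11.2% and 8.36% in the sham libraries and 21.1% and 19.6% in the tenotomy libraries, and the Adamts share is 46.0% and 44.5% against 29.9% and 31.3%.

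Of the 27 untested members, 15 had at least 10 UMIs over the 4 libraries. In 4 of these the exact 95% interval of the ratio of scaled counts, tenotomy over sham, lay above 1, an interval that covers counting error only. The share of all untested genes with such an interval was not taken. In the lowest of 10 equal bins of tested genes by level, the median log2 fold change was 0.53. The 4 genes are therefore given as a description. Adam8, a shedding protease known from leukocytes, had 1 and 1 UMIs in sham, against 8 and 14 after tenotomy, a ratio of 5.64 (1.39 to 49.5). Mmp15 had a ratio of 4.62 (1.42 to 23.8), Adamts6 of 4.62 (1.11 to 41.0) and Adamts7 of 3.21 (1.11 to 12.7). For these 4 genes the higher sham library stayed below the lower tenotomy library in UMIs. Adam15 had 1 and 4 UMIs against 8 and 8, Adam22, which is not a protease, 2 and 4 against 0 and 7, Adamtsl5 1 and 0 against 2 and 7 (4.62, 0.64 to 202.3), and Adam30, a testis-type gene, 1 and 2 against 4 and 3.

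The other 12 members had fewer than 10 UMIs each. Without a UMI in sham were Adam1b, Adam2, Adam7, Adam33, Adamtsl3, Mmp3, Mmp9 and Mmp23, and without one after tenotomy was Adamts16. A count of 0 allows up to 13.1 and 13.6 CPM in the sham libraries and 7.80 and 6.08 CPM in the tenotomy libraries, so a low level of these genes was not detectable at this depth.

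Beyond these families, 79 genes that activate, restrain or serve as substrates of the enzymes were read from 8 lists, and 52 of them were tested. On the TMM scale 12 were higher and 26 lower, beside 25.8% and 26.3% of all tested genes, with a median log2 fold change of -0.38. With offsets for abundance 18 were higher and 14 lower, beside 1520 and 1582 of all 7228 tested genes. In UMIs per tube 28 were higher and 3 lower, beside 4481 and 331 of all tested genes. The proprotein convertases, which cut off the inhibitory prodomain, were lower in 2 of 2 tested genes on the TMM scale. Furin had 92 and 82 UMIs in the sham libraries and 99 and 163 in the tenotomy libraries (-0.38, adjusted p = 0.093), and Pcsk5 fell from 29 and 25 to 10 and 17 (-1.95, adjusted p = 2.2e-04).

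The plasminogen activation genes, which open a parallel route of matrix proteolysis, were lower in 5 of 5 tested genes on the TMM scale, beside 26.3% of all tested genes. Plau, the urokinase gene, had 102 and 93 UMIs against 121 and 101 (-0.76, adjusted p = 0.0054), and its receptor gene Plaur fell from 33 and 28 to 18 and 20 (-1.63). Plat, the tissue activator, was at -1.16, and the inhibitor gene Serpine2 at -0.76.

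Cell-surface regulators were mixed, with 1 higher and 3 lower of 6 tested, beside 25.8% and 26.3% of all tested genes. Bsg, which encodes the MMP inducer basigin, rose from 47 and 48 UMIs to 109 and 158 (0.52, adjusted p = 0.031). Tfpi2, a secreted protease inhibitor, fell from 44 and 40 UMIs to 12 and 28 (-2.03), and Lrp1, the endocytic receptor that clears many proteases and TIMP complexes, fell from 116 and 123 to 106 and 92 (-1.22). Itgav was lower by less (-0.46, adjusted p = 0.077). Reck, a membrane-anchored MMP inhibitor, had 1 and 1 sham UMIs against 2 and 2 after tenotomy and could not be tested.

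Among the matrix substrates 5 of 18 tested genes were higher and 8 lower, beside 25.8% and 26.3% of all tested genes, and of the higher ones all but Col1a2 were below the filter level in at least 1 sham library. Fn1, the fibronectin gene, had 1 and 3 UMIs in sham, against 94 and 99 after tenotomy (4.58), and Tnc, the tenascin-C gene, 8 and 2 against 81 and 109 (3.26). Spp1, which encodes osteopontin, had no UMI in sham and 179 and 165 after tenotomy. With Vcan and Col1a2 these were the higher ones, and the median of the list was -0.20. The lower ones were Ltbp1 (-1.04), Lama2 (-1.02), Hspg2 (-0.90), Col4a1 (-0.83), Nid1 (-0.55), Col3a1 (-0.53), Col4a2 (-0.38) and Dcn (-0.38).

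Markers of other cells that the YFP gate could hold moved with some of these results. The 12 leukocyte markers, of which 11 were in the table and 8 had no UMI in sham, summed to 8.71 and 27.2 CPM in sham and 200.2 and 383 CPM after tenotomy. Lyz2, the most abundant of them, had 0 and 0 UMIs against 17 and 38, whereas Ptprc, which defines leukocytes, had 0, 1, 1 and 4 in the 4 libraries. The list was higher in the same libraries in which Timp1 was higher and Adam8 and Mmp9 had more UMIs, and its part in those results was not tested.

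Fibroblast markers summed to 5876 and 5572 CPM in sham and 4914 and 4364 CPM after tenotomy, led by Col3a1, with 2 of 8 tested markers higher and 5 lower, beside 25.8% and 26.3% of all tested genes. The higher ones were Ly6a, at 1 and 0 UMIs against 22 and 41 (log2 fold change 4.79), and Col1a2. Pdgfra, which defines fibro-adipogenic cells, had 2 UMIs in all, both in tenotomy replicate 1, and Pi16 had 1 UMI in all. Tenocyte markers went from 8.71 and 27.2 CPM to 166.4 and 127.6 CPM, led by Scx at 1 and 2 against 40 and 61 UMIs. Thbs4 and Fmod had 14 and 7 UMIs in tenotomy replicate 1 and none in the other libraries, and Tnmd and Comp had 1 UMI each in all, in the same library. Myofibre transcripts, led by Acta1, went from 1606 and 892 CPM to 3169 and 2851 CPM, with no UMI of Myh1 or Myh2 in sham. Endothelial markers, led by Tek and without a UMI of Cldn5 in sham, were at 91.4 and 72.5 CPM against 111.8 and 103.3, although Tek, the single one tested, was lower (-1.41, adjusted p = 0.0154). Mural markers, led by Acta2 and without a UMI of Myh11 in sham, were at 1550 and 1468 CPM against 1615 and 1750. Satellite cell markers, led by Sdc4, went from 5968 and 5060 CPM to 4082 and 3495 CPM, with 2 of 8 higher and 5 lower. Pax7 was among the lower ones, from 499 ± 20.4 CPM to 279 ± 2.39 CPM (SD, n = 2; log2 value -0.84, adjusted p = 6.4e-04). The part of these shifts in the changes of the Adamts, Timp and collagen-processing genes was not tested.

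Abundance moved with the fold changes across all tested genes. When tested genes were ranked by mean level and divided into 10 equal bins, the medians of the log2 fold change ran from 0.53 in the bin of lowest level to -0.74 in the bin of highest level. Adam19 and Adamts14, both higher, stood in the lowest bin, and Timp2, at -0.57, stood in the highest. The other called members lay between. Adam10 and Timp1 were in a bin whose median was 0.12, and Adamts1 in a bin whose median was -0.28, beside their own values of 1.69, 1.67 and -1.63. Tested Adam genes lay in bins with medians from 0.12 to 0.53, and tested Adamts genes in bins with medians from -0.28 to 0.53. With offsets that remove the trend, 1520 of all genes were higher and 1582 lower, and 5 members were higher and 8 lower. Adamtsl1 newly passed as higher there (0.54, adjusted p = 0.0926), and the calls of Adam17, Adam19, Adamts14, Adamts5 and Timp2 were lost, at 0.65, 0.45, 0.45, -0.52 and 0.18.

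**Figure D4:**
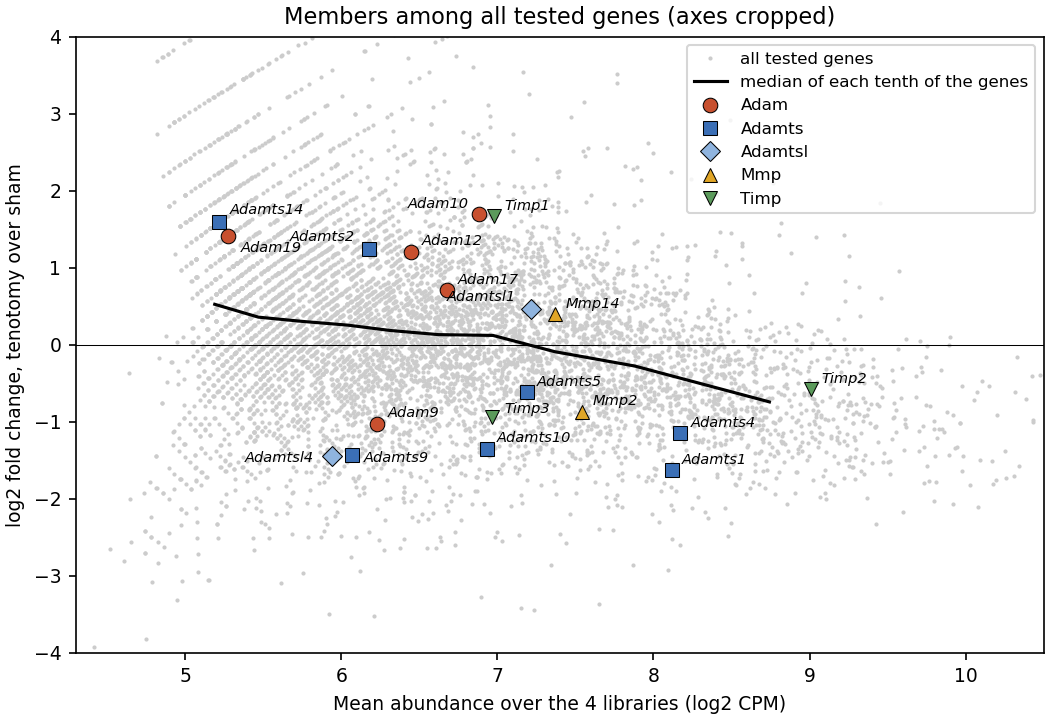
Log2 fold change, tenotomy over sham, against the mean level over the 4 libraries in log2 CPM, for all 7228 tested genes in grey and the 19 tested members as named points, with axes cropped. The median of the grey points goes from 0.53 in the lowest of 10 bins of level to -0.74 in the highest, and Adam10 at 1.69 and Adamts1 at -1.63 lie far from it.

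The sign of several members depended on the scale. Tenotomy libraries held more UMIs from the same number of cells, and without scaling, in UMIs per tube, the median log2 fold change of all tested genes was 1.01 in place of 0.05. On that scale 9 of the 19 members passed as higher and only Adamts1 as lower, beside 4481 higher and 331 lower of all 7228 tested genes. Timp1 was at 2.62 and Adam10 at 2.65. Adamts5, Mmp2, Timp2 and Timp3 changed sign, but a scale that shifts all genes upward brings this by construction. None of them passed there (adjusted p = 0.363, 0.785, 0.132 and 0.965). How much of the larger total reflects RNA content per cell and how much reflects capture cannot be told apart.

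**Figure D5:**
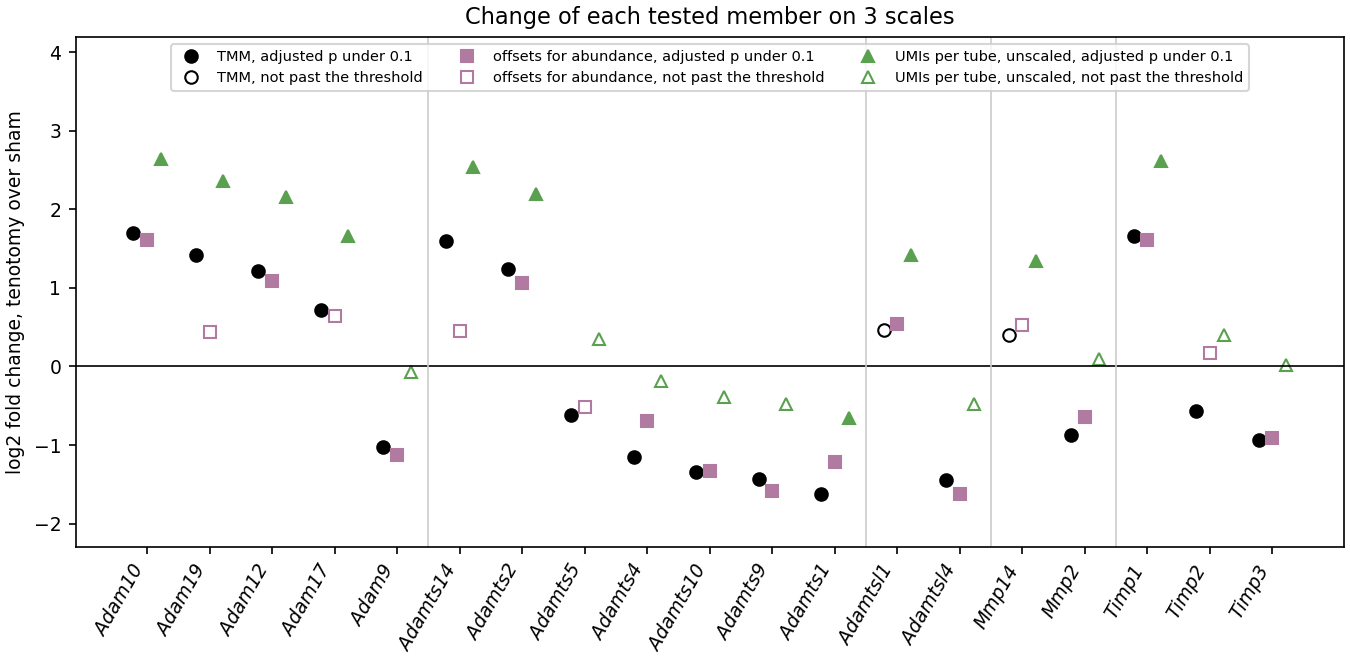
Log2 fold change of each of the 19 tested members on 3 scales, after TMM scaling, with offsets for abundance and in unscaled UMIs per tube. Adam10 and Timp1 are above 0 and Adamts1 below 0 on all 3, while Timp2 goes from -0.57 to 0.18 and 0.40.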

How the data were processed

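Muscle stem cells sorted by YFP from plantaris were measured in 4 libraries, 2 sham and 2 tenotomy, grouped by their titles. The authors deposited raw UMI counts per gene, made with UMI-tools 1.0.0, HISAT2 2.1.0 on GRCm38 and featureCounts 1.6.4; annotation release and strand setting are not given in the sources used here. Members and lists were chosen with earlier results of these data known. From the counts, edgeR 4.0.16 (R 4.3.3) was fitted by quasi-likelihood with TMM factors and filterByExpr (minimum count 10, minimum total 15), with Benjamini-Hochberg adjustment over 7228 genes and a threshold of 0.1. CPM divides by the UMIs of tested genes times the TMM factor. Depth was 269683, 260488, 387955 and 483528 UMIs, and floors and intervals cover counting error only. Chi-square per degree of freedom was 1.31 and 1.50 within groups and 6.34 to 7.86 between them, so no library was a copy of another. The fit was also run on simulated data, with an outcome that is not reported here. Named were all members tested or with at least 10 UMIs, up to 4 called genes per pathway list with the largest change, Furin, Reck, Bsg and Plau, and per marker list the most abundant gene and defining genes at 0. Members with fewer UMIs, Rhbdf1, Tspan14, Col1a1, Col1a2, Vcan, Scx and Pax7 were added after their values were seen where the rule missed them. The same holds for Met, Tnfrsf1a, Ly6a, Ptprc, Pi16 and the lower matrix substrates. Coordinates and overlaps came from GENCODE M21 on GRCm38, which matched 46 of 46 members by identifier. Of the tested members, 10 overlapped another gene and 8 of these a gene on the other strand, and without strand in counting the reads of such a pair cannot be told apart. Some genes named by the rule are not reported here. The 16 alternatives changed scaling, tool, filter, threshold, depth, pairing or the libraries used.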

Additional observations from a re-analysis of the deposited data

How the results depend on the processing

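Over 16 alternatives, 254 of 303 values of tested members kept direction and side of the threshold, 36 no longer passed, 8 newly passed and 5 reversed. Of the 17 called members, 3 (Adam10, Timp1 and Adamts1) passed in every alternative and 13 never changed sign. In UMIs per tube 4481 of all genes were higher and 331 lower, members were 9 higher and 1 lower, and pathway genes 28 higher and 3 lower; Adamts5 (0.35), Mmp2 (0.10), Timp2 (0.40) and Timp3 (0.019) reversed there, as did Timp2 with offsets for abundance (0.18), by construction of those scales. Offsets left 14 pathway genes lower. Higher genes made up 49.6% of calls with TMM, 55.6% with upper-quartile factors, 66.6% with library sizes alone and 93.1% in UMIs per tube, and the median log2 fold change of all genes was 0.05, 0.15, 0.33 and 1.01. DESeq2 1.42.0 called 967 genes higher and 1215 lower, with 2 members higher and 6 lower; the cause was not tested. Without a filter 11 of 46 members were higher and 9 lower, beside 2451 and 1803 of all 19353 genes. Leaving out 1 library gave 1360 to 1668 genes higher and 1489 to 1720 lower, 4 to 7 members higher and 8 to 9 lower, and 10 to 13 pathway genes higher and 20 to 26 lower; the 4 came without sham replicate 2 and without tenotomy replicate 1, and a lone library was assumed to vary like the other group. Same-numbered libraries did not deviate together (r = -0.034 across genes), and the replicate block left 1806 and 1864 genes, 7 and 10 members and 11 and 26 pathway genes higher and lower. Depth limits the 27 untested members, none of which had more than 30 UMIs.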
